A study of Canis lupus familiaris with 15 samples.

Results

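Hepatocyte growth factor (HGF) and 8 receptor tyrosine kinases that have been considered as drug targets in osteosarcoma (MET, EGFR, ERBB2, PDGFRA, PDGFRB, KIT, AXL and FGFR1) were followed across 15 canine primary tumors. Every probeset that carries only the symbol of one of these genes in the platform annotation was taken, which gave 13 probesets of 9 genes out of 42860 probesets and 15115 named genes. AXL, EGFR, KIT and PDGFRB have 2 probesets each, and the brighter of them stands for the gene unless stated. No measured value entered the rule, though the genes were picked with earlier results of these tumors known.

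Tumors were taken from the limb at amputation, before chemotherapy, snap frozen and hybridised to Affymetrix Canine 2.0 arrays, 1 array and 1 tumor for each dog. The dogs of the DFI < 100 cohort (n = 8) had a disease-free interval (DFI) of less than 100 days after surgery, and those of the DFI > 300 cohort (n = 7) one of more than 300 days. The DFI < 100 dogs were 3 Greyhounds, a Rottweiler, a Doberman, a Labrador Retriever, a Golden Retriever and a dog of mixed breed, aged 4.4 to 10.8 years, and the DFI > 300 dogs were 4 of mixed breed, a Greyhound, a Golden Retriever and a Rottweiler, aged 7.1 to 13.4 years. By the histology that the study lists for each dog, the DFI < 100 tumors were 3 giant cell and 5 osteoblastic osteosarcomas, and the DFI > 300 tumors 6 osteoblastic and 1 poorly differentiated. The dogs were given doxorubicin, a platinum drug or both after the tumor had been taken.

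A receptor tyrosine kinase spans the cell membrane. When its ligand binds outside, receptors pair and phosphorylate each other on tyrosines inside the cell, and adaptor proteins then start the RAS to MAP kinase and the PI3 kinase to AKT cascades. In bone, the PDGF and FGF receptors serve mesenchymal and osteoblast growth, and MET answers to HGF made mainly by stromal cells. An array reads the mRNA only, and reads neither the receptor protein nor its phosphorylation. In pieces of whole tumor, fewer cells of a type and less RNA per cell cannot be told apart.

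The values are log2 of the PLIER signal, in which 1 unit is a doubling of the signal. Probesets for reporter sequences that dogs lack were on the same arrays, and their 95th percentile, at a log2 value of 6.79 averaged over the arrays and 6.53 to 7.12 on single arrays, is called the reporter level here. Of the 42860 probesets, 33.9% had a mean above it. The brightest reporter probeset stood at 13.2 to 13.5 on single arrays. Not every reporter was dim, so the reporter level is a reference and not a limit of detection. The median signal of the arrays was 46.6 to 53.9 in the DFI < 100 cohort and 48.6 to 54.7 in the DFI > 300 cohort. Of 7 osteoblast markers, RUNX2, ALPL, IBSP, SPP1, COL1A1 and PTH1R had a mean above the reporter level and BGLAP, osteocalcin, did not, at 5.94. Of the epithelial markers 0 of 6, of the T cell markers 0 of 8 and of the adipocyte markers 0 of 5 had a mean above it. Single dogs could still be above the level in genes of low mean. Dog 173175 had BGLAP at 12.42 and ESRP1, an epithelial marker, at 7.93. CD3G, a T cell marker, reached 8.56 in dog 188084, and FABP4, an adipocyte marker, 11.34 in dog 212759.

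The arrays fell into 2 sets by the lys poly-A RNA that was added to every sample as a labelling control. It stood at a log2 value of 5.99 to 6.90 on 6 arrays and at 7.51 to 8.21 on 9 arrays. The same sets were parted without overlap by the bioB hybridisation control, at 8.00 to 8.39 on the low set and 8.46 to 9.06 on the high set, and by the log2 ratio of 3 prime to 5 prime probesets of actin and GAPDH, at 1.10 to 1.93 and 2.01 to 2.88. The low set held 3 DFI < 100 and 3 DFI > 300 dogs, and the high set 5 and 4. Per the methods there were 2 hybridisation batches, but the sources used here do not say which array belonged to which. Between the sets, low minus high with cohort held, 3 of the 13 member probesets had an unadjusted p under 0.05, beside 6.41% of all probesets, and 0 passed the adjusted p in limma, beside 0% of all. Those 3 were HGF and both probesets of EGFR. Values within each set are given where a result moved with it.

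HGF, the ligand, was not above the reporter level of its own array in any of the 15 dogs. It had a log2 value of 1.15, 3.68 and 5.22 at the lowest, the median and the highest of the DFI < 100 dogs, and of 1.89, 4.18 and 5.88 in the DFI > 300 dogs. The cohorts covered much the same range. The 6 dogs of the low spike-in set had a mean of 2.58 ± 1.14 (SD) and the 9 of the high set one of 4.50 ± 0.71, a difference, low minus high with cohort held, of -1.96 (standard error 0.42). Its p was 0.423 in limma after adjustment over all probesets by Benjamini-Hochberg. The part of labelling in the HGF values was not tested further.

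MET, the receptor of HGF, was likewise under the reporter level in all 15 dogs. Its log2 values were 3.27, 5.32 and 6.07 at the lowest, the median and the highest of the DFI < 100 dogs and 3.70, 5.14 and 6.11 in the DFI > 300 dogs. Ligand and receptor thus lay under the 95th percentile of the reporters, where level alone does not part a transcript from sequences dogs lack. Their differences between dogs are given with that limit. The median of the reporters was lower, at 2.41 to 2.82 on single arrays, and every MET value lay above it. Of 9 genes that cleave pro-HGF or restrain its activation, SPINT2, an inhibitor of HGF activator and hepsin, was the one with a mean above the reporter level, at 9.57 ± 0.66 (SD, n = 15). It averaged 9.37 ± 0.60 over the 8 DFI < 100 dogs and 9.79 ± 0.70 over the 7 DFI > 300 dogs (SD), and differed by -0.42 (standard error 0.32).

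EGFR binds EGF, TGF-alpha and related ligands. It was above the reporter level of its own array in 11 of 15 dogs, 6 of 8 in the DFI < 100 cohort and 5 of 7 in the DFI > 300 cohort. Its log2 values were 5.50, 8.63 and 9.53 at the lowest, the median and the highest of the DFI < 100 dogs and 6.52, 7.79 and 9.89 in the DFI > 300 dogs. Tumors with much and with little EGFR signal were thus found in both cohorts. Its SD of 1.47 over the 15 dogs exceeded that of 98.2% of the 4407 probesets of like mean. The low spike-in set lay lower, at 7.01 ± 1.07 (SD, n = 6) against 8.61 ± 1.39 (SD, n = 9), a difference of -1.62 (standard error 0.65, adjusted p = 0.721 in limma).

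ERBB2 (HER2), which binds no ligand of its own and pairs with the other ERBB receptors, had a narrow range under the reporter level. The values were 5.77, 6.14 and 6.84 at the lowest, the median and the highest of the DFI < 100 dogs and 6.05, 6.30 and 6.48 in the DFI > 300 dogs. Dog 173175, a Rottweiler of the DFI < 100 cohort, was the 1 dog above the level of its own array and stood apart from the 7 others of its cohort, the next at 6.27.

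The PDGF receptors, which drive the growth of mesenchymal cells and pericytes, both had signal. PDGFRA was above the reporter level in 15 of 15 dogs, with log2 values of 7.06, 9.01 and 9.42 at the lowest, the median and the highest of the DFI < 100 dogs and 7.66, 9.14 and 9.68 in the DFI > 300 dogs. It was the one member above the level in every dog, and dog 173175 had its lowest value. PDGFRB was above the level in 12 of 15 dogs, with values of 6.32, 7.28 and 7.62 at the lowest, the median and the highest of the DFI < 100 dogs and 6.91, 7.54 and 9.25 in the DFI > 300 dogs. The highest DFI < 100 dog lay under the 2 highest DFI > 300 dogs, 168327 at 8.15 and 180119 at 9.25, and 3 DFI < 100 dogs lay under every DFI > 300 dog.

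KIT, the receptor of stem cell factor and the gene next to PDGFRA in the dog annotation, was above the level of its own array in 5 of 15 dogs, 4 of them in the DFI < 100 cohort and 1 in the DFI > 300 cohort. Its values were 4.53, 6.21 and 7.36 at the lowest, the median and the highest of the DFI < 100 dogs and 4.15, 5.23 and 7.53 in the DFI > 300 dogs. The highest value of all was in the DFI > 300 dog 193231. KIT also marks mast cells, and of 6 mast cell markers measured, MS4A2 had a mean above the reporter level while CPA3, HDC, CMA1, FCER1A and GATA2 did not.

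AXL, a receptor of GAS6, varied least among the dogs. Its values were 6.75, 7.12 and 7.41 at the lowest, the median and the highest of the DFI < 100 dogs and 6.58, 6.90 and 7.14 in the DFI > 300 dogs. It was above the reporter level of its own array in 8 of 8 DFI < 100 dogs and in 4 of 7 DFI > 300 dogs, although its values lay within 0.83 of each other and close to that level. Its SD of 0.21 was larger than that of 4.10% of the 5463 probesets of like mean. GAS6, its ligand, had a mean of 7.63 ± 0.61 (SD, n = 15).

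FGFR1 had the widest range among the dogs of the 9 genes. It had values of 5.23, 7.21 and 9.996 at the lowest, the median and the highest of the DFI < 100 dogs and 6.22, 7.93 and 9.44 in the DFI > 300 dogs, and was above the level of its own array in 12 of 15. Both the lowest dog, 208911, and the highest, 173175, were of the DFI < 100 cohort. Its SD of 1.27 exceeded that of 96.4% of 4877 probesets of like mean. Some dogs held the extremes of several genes. Dog 173175 was highest in FGFR1 and ERBB2 and lowest in MET and PDGFRA, dog 208911 lowest in FGFR1 and ERBB2 and highest in AXL, and dog 188084, the poorly differentiated tumor, highest in EGFR and HGF.

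**Figure D1:**
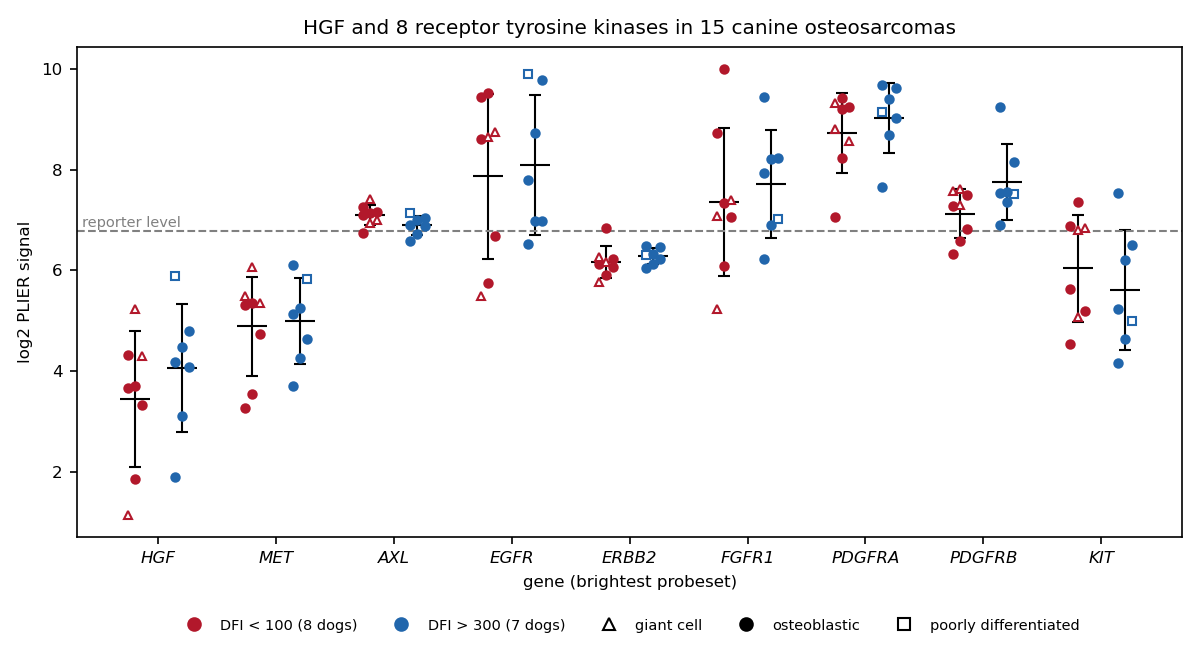
Log2 PLIER signal of the brightest probeset of 9 genes in each dog (points, DFI < 100 in red, DFI > 300 in blue, the symbol giving the histology), with cohort means and SDs (black bars) and the reporter level of 6.79 (dashed line). For each gene the red and blue points overlap, PDGFRA lies above the line in all 15 dogs and HGF and MET lie under it in all 15.

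The 2 probesets of a gene did not always tell the same story. For KIT they followed each other closely, with Pearson r = 0.95 over the 15 dogs, and for PDGFRB r was 0.96. Spearman rho was 0.94 for KIT and 0.79 for PDGFRB. These values are descriptions of probesets read on the same arrays. The dimmer probeset was above the reporter level in 1 of 15 dogs for either gene. The brighter one was above it in 5 of 15 for KIT and in 12 of 15 for PDGFRB. EGFR had r = 0.76 over all dogs, 0.81 in the 9 dogs of the high spike-in set and -0.26 in the 6 of the low set. Its dimmer probeset was above the reporter level in 0 of 15 dogs and lay between 4.64 and 5.24 in 5 dogs, each of the high set, and between 3.09 and 3.80 in the other 10. For AXL r was -0.24, and the dimmer probeset, with a mean of 3.02, was above the level in 0 dogs. Statements on AXL therefore rest on 1 probeset of narrow range.

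**Figure D2:**
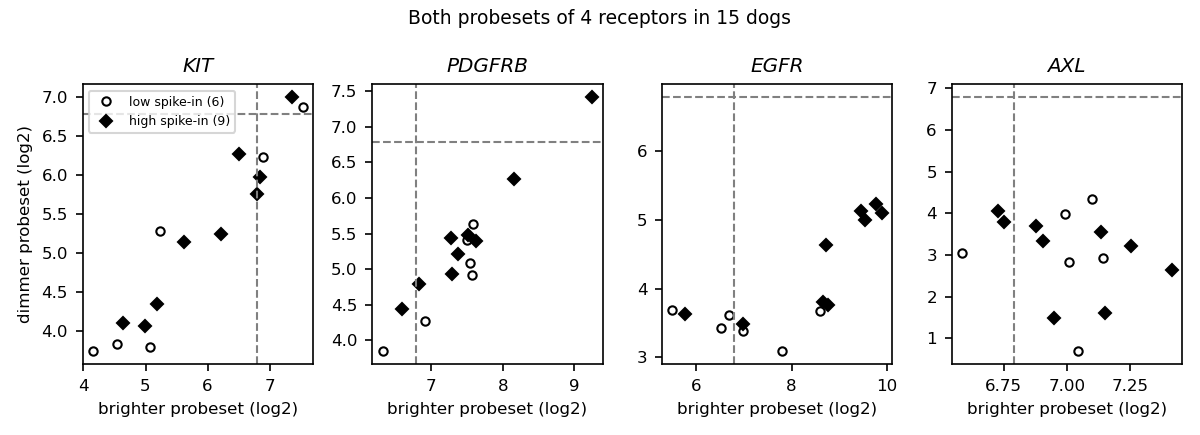
Log2 PLIER signal of the dimmer probeset (vertical) against the brighter one (horizontal) of KIT, PDGFRB, EGFR and AXL in 15 dogs, the open circles being the 6 arrays of low and the filled diamonds the 9 of high spike-in signal, with the reporter level as dashed lines. KIT and PDGFRB rise along a line (r = 0.95 and 0.96, Spearman rho = 0.94 and 0.79). EGFR does so in the high set and AXL in neither.

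The first comparison asked whether the receptors differed with outcome. None of the 9 genes and none of the 13 probesets passed an adjusted p of 0.05 between the DFI < 100 and DFI > 300 dogs in limma, and every adjusted p of the members was at least 0.999. Over all probesets 0% passed (0 of 42860), by limma and by the methods' t-test, and 3.68% had an unadjusted p under 0.05 in limma (1578 probesets, and 1567 by the methods' t-test), against 0 of the 13 members. The members' median difference was -0.23 over the 9 genes, beside 0.01 over all probesets.

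PDGFRB came nearest to a difference. Its mean was 7.13 ± 0.49 over the 8 DFI < 100 dogs and 7.76 ± 0.75 over the 7 DFI > 300 dogs (SD), and the limma difference was -0.63 (standard error 0.31, 95% interval -1.30 to 0.03, adjusted p = 0.999). The difference was -0.54 (standard error 0.41) on its dimmer probeset. Much of it lay in 1 dog, and without dog 180119 it was -0.38. Within the array sets it was -0.20 over the 6 dogs of low spike-in signal and -0.95 over the 9 of high signal. Markers of pericytes and smooth muscle, cells that carry PDGFRB, lay the same way, 7 of 9 having lower means in the DFI < 100 dogs with a median difference of -0.33 (0 called, 0 with an unadjusted p under 0.05), and the mean of the 4 above the reporter level was 8.32 to 9.83 in the DFI < 100 dogs and 8.68 to 10.36 in the DFI > 300 dogs. Of the other cell types, 2 T cell markers were higher and 6 lower, and 1 skeletal muscle marker higher and 5 lower. Adipocyte markers were 2 higher and 3 lower, epithelial markers 1 and 5, marrow and erythroid markers 2 and 5, and mast cell markers 2 and 4. Endothelial markers were 3 higher and 4 lower, and macrophage markers 4 and 5. The lean was the other way for osteoclast markers, 5 higher and 1 lower, and osteoblast markers, 5 higher and 2 lower. TRAT1, a T cell marker far under the reporter level, had 2.65 in the DFI < 100 dogs and 1.96 in the DFI > 300 dogs (adjusted p = 0.999 in limma). It was the 1 gene of these lists with an unadjusted p under 0.05. The part of any of these cells in the difference was not tested.

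For the other members the intervals bound what these numbers of dogs could have shown. HGF averaged 3.44 ± 1.34 in the DFI < 100 dogs and 4.06 ± 1.27 in the DFI > 300 dogs, with an interval of -1.97 to 0.74 for the difference. MET averaged 4.89 ± 0.99 and 4.99 ± 0.85, with an interval of -1.07 to 0.86. EGFR averaged 7.87 ± 1.63 in the DFI < 100 dogs and 8.09 ± 1.39 in the DFI > 300 dogs, and its interval of -1.80 to 1.35 allows a difference of more than 2 times either way. The interval was likewise wide for FGFR1, at -1.69 to 1.01, and for KIT, at -0.73 to 1.59. It was narrow for ERBB2, at -0.43 to 0.21, and for AXL, at -0.07 to 0.47. These 2 probesets varied little, ERBB2 mostly under the reporter level and AXL close to it. Whether their signal follows the transcript was not tested, so their intervals bound the signal only. PDGFRA averaged 8.73 ± 0.79 and 9.03 ± 0.70, with an interval of -1.09 to 0.49.

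With histology held, the 5 osteoblastic tumors of the DFI < 100 cohort were set against the 6 of the DFI > 300 cohort. PDGFRB had log2 values of 6.32, 6.59, 6.83, 7.27 and 7.50 in the DFI < 100 tumors and of 6.91, 7.37, 7.54, 7.56, 8.15 and 9.25 in the DFI > 300 tumors. The lower 3 of the DFI < 100 tumors lay under all 6 DFI > 300 tumors, and the other 2 among them. The difference was -0.89 (standard error 0.37, 95% interval -1.68 to -0.11, adjusted p = 0.961 in limma). On the dimmer probeset of PDGFRB it was -0.74 (standard error 0.50), with no unadjusted p under 0.05. The brighter probeset was the 1 of 13 member probesets with an unadjusted p under 0.05, beside 4.64% of all probesets (1988 of 42860). Of the 13 members 0 passed the adjusted p, beside 0% of all (0 of 42860). With each of the 11 dogs left out in turn the difference lay between -1.07 and -0.60, with an unadjusted p under 0.05 in 7 of 11 fits, and within the array sets it was -0.43 in the low and -1.36 in the high set. None of the other 8 genes had an unadjusted p under 0.05 here. Among these tumors 7 of 7 endothelial markers were lower in the DFI < 100 cohort, with a median difference of -0.27, and 7 of 9 pericyte and smooth muscle markers, with a median of -0.22, 0 of either list with an unadjusted p under 0.05. Their part in the PDGFRB difference was not tested.

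The third comparison set the 3 giant cell tumors of the DFI < 100 cohort against its 5 osteoblastic tumors. MET had log2 values of 5.35, 5.48 and 6.07 in the giant cell tumors and of 3.27, 3.53, 4.74, 5.30 and 5.34 in the osteoblastic tumors. Every giant cell tumor lay above every osteoblastic one, the nearest pair being equal to 2 decimals (5.346 and 5.344), and all 8 values lay under the reporter level. The difference was 1.20 (standard error 0.58, 95% interval -0.05 to 2.44, adjusted p = 0.818 in limma). Of all probesets 2.68% had every giant cell tumor above every osteoblastic one, and MET was the only member probeset that did. In limma 0.00233% of all probesets passed the adjusted p (1 of 42860), against 0 of 13 members. An unadjusted p under 0.05 was found for 6.15% of all probesets (2635), against 0 of 13 members. The MET difference was 1.78 in the low spike-in set (1 giant cell and 2 osteoblastic tumors) and 0.88 in the high set (2 and 3), and 1.93 without Greyhounds.

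FGFR1 lay the other way, with log2 values of 5.23, 7.08 and 7.40 in the giant cell tumors and of 6.08, 7.07, 7.34, 8.73 and 9.996 in the osteoblastic tumors of the DFI < 100 cohort. The groups overlapped. Its difference was -1.28 (standard error 0.88, adjusted p = 0.863 in limma), and -0.60 without dog 208911. PDGFRB differed by 0.60 (standard error 0.44). EGFR differed by -0.37 (standard error 1.04), and by -2.15 in the low and 0.46 in the high spike-in set. HGF differed by 0.19 (standard error 0.88) and KIT by 0.32 (standard error 0.81). These 3 values hung on single dogs, and without dog 153599 EGFR was 0.70, HGF 1.39 and KIT 0.90, so that neither sign nor size was settled with 3 giant cell tumors. PDGFRA differed by 0.27 (standard error 0.56), ERBB2 by -0.17 (standard error 0.22) and AXL by 0.04 (standard error 0.18). Osteoclast markers were 12.46 to 12.59 in the giant cell tumors and 7.16 to 11.68 in the osteoblastic tumors as the mean of the 5 genes above the reporter level, with 5 of 6 genes higher and a median difference of 2.48. All of 7 endothelial markers were higher as well, with a median difference of 1.12, and 4 of them, KDR among them, had an unadjusted p under 0.05. The mean of the 4 above the reporter level was 8.51, 9.33 and 10.64 in the giant cell dogs 153599, 204714 and 208911. In the osteoblastic tumors it was 7.63 to 8.64, so that dog 153599 lay within their range. Of 9 macrophage markers 5 were higher and 4 lower, with a median difference of 0.05. CD68 had the smallest p of them, at 11.48 in the giant cell tumors and 8.25 in the osteoblastic tumors. C1QB lay the other way, at 8.37 and 9.09. None of these markers passed the adjusted p. The part of these cells in the MET and PDGFRB values was not tested.

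**Figure D3:**
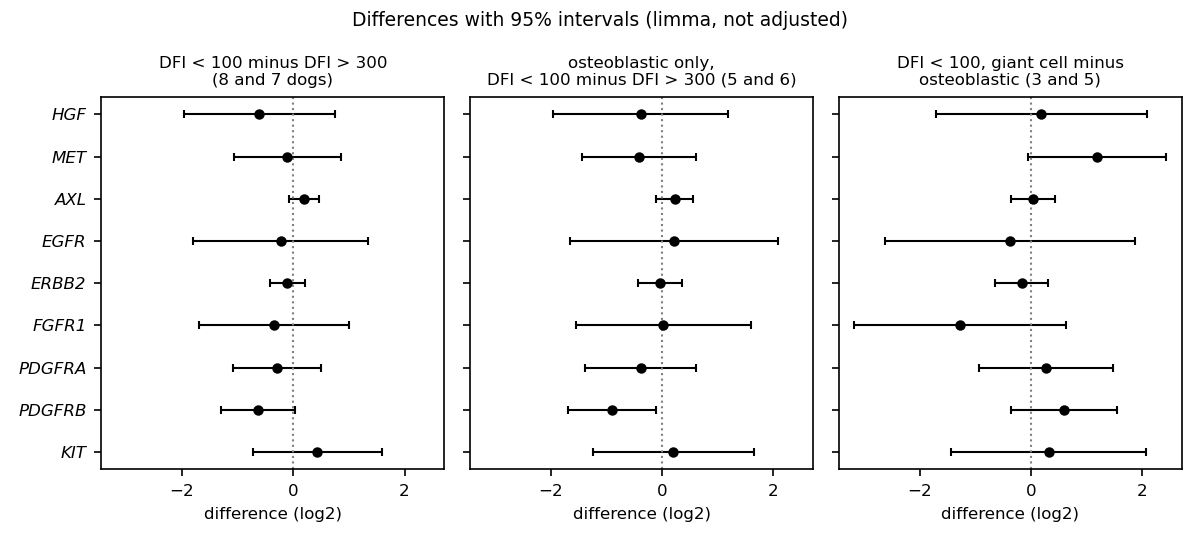
Log2 difference (points) with its 95% interval from limma (bars, not adjusted for the number of probesets) of 9 genes in the 3 comparisons, each panel naming the groups and the number of dogs. All intervals include 0 but that of PDGFRB among osteoblastic tumors, at -1.68 to -0.11.

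Genes that act with the receptors were counted from fixed lists. The list of 20 ligands covers these receptors and their families, and not every ligand on it binds a member. Of the 20, TGFA, NRG1, PDGFD, GAS6 and FGF7 had a mean above the reporter level. Against the DFI > 300 dogs, the DFI < 100 dogs had 16 ligands lower and 4 higher, with a median difference of -0.25 and 0 with an unadjusted p under 0.05. PDGFA, a ligand of the PDGF receptors, had the smallest p of the list, at 2.14 in the DFI < 100 dogs and 2.77 in the DFI > 300 dogs, both far under the reporter level (difference -0.62, standard error 0.31). NRG1, which binds ERBB3 and ERBB4 and was above the level, averaged 8.22 in the DFI < 100 dogs and 8.72 in the DFI > 300 dogs (difference -0.51, standard error 0.36). Its highest value, 10.6, was in dog 188084, the poorly differentiated tumor. Among osteoblastic tumors NRG1 averaged 8.35 in the DFI < 100 dogs and 8.41 in the DFI > 300 dogs. The other 15 ligands, PDGFB and EGF included, had a mean under the reporter level. In the subtype comparison 10 ligands were higher and 10 lower in giant cell tumors, KITLG, the ligand of KIT, differing by 0.90 (standard error 0.45). Of the 9 genes of HGF activation 2 were higher and 7 lower in giant cell tumors, HPN, hepsin, differing by -0.57 (standard error 0.21) with an unadjusted p under 0.05 and an adjusted p of 0.785 in limma.

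Of 28 other receptor tyrosine kinases measured, 13 had a mean above the reporter level, among them FGFR2, ERBB4, KDR, MERTK, DDR1 and DDR2. In the DFI < 100 dogs 17 were higher and 11 lower, with 0 called. DDR1, a collagen receptor, had the smallest p, at 7.00 in the DFI < 100 dogs and 7.80 in the DFI > 300 dogs (difference -0.80, standard error 0.33, adjusted p = 0.999 in limma). In giant cell tumors FGFR2 differed from osteoblastic tumors by -1.01 (standard error 0.39) and KDR, a VEGF receptor of endothelium, by 1.12 (standard error 0.41), each with an unadjusted p under 0.05 and an adjusted p of 0.785 in limma. They were 2 of the 28, of which 9 were higher and 19 lower, and 6.15% of all probesets had such a p. The highest KDR value of all dogs, 11.15, was in the giant cell dog 208911.

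Downstream of the receptors, 11 of 23 adaptors and kinases were above the reporter level, GRB2, SHC1, FRS2, PIK3R1, AKT1, MAP2K1 and STAT3 among them. Between the DFI < 100 and DFI > 300 dogs 12 were higher and 11 lower, with a median of 0.03 and 0 with an unadjusted p under 0.05. Of 15 feedback inhibitors and targets of these cascades, 12 were higher and 3 lower, with a median of 0.04. DUSP6, a phosphatase induced by MAP kinase signaling, ERRFI1, which restrains EGFR, ETV4, CCND1 and EGR1 were those above the reporter level, and none passed an unadjusted p of 0.05 in the cohort comparison. SPRY4, a feedback inhibitor, did so with a difference of -1.32 (standard error 0.60, adjusted p = 0.999 in limma) at values far under the level.

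Whether the receptors varied together from dog to dog was tested over the 36 pairs of the 9 genes. HGF and MET, the ligand and its receptor, had Pearson r = 0.18 (permutation p = 0.531) and Spearman rho = 0.32 (p = 0.242), which passed no threshold. It was 0.27 without the 2 dogs farthest from the median of HGF, -0.22 in the low spike-in set and 0.49 in the high set. Of the 36 pairs, 2 had a Pearson p under 0.05 after Benjamini-Hochberg over the pairs and 0 a Spearman p.

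HGF and EGFR had r = 0.74 (permutation p = 0.0016, adjusted p = 0.0288) and rho = 0.73 (p = 0.00296, adjusted p = 0.0912). It was 0.70 within the DFI < 100 dogs and 0.80 within the DFI > 300 dogs, and 0.60 without dogs 153599 and 173175, which lay farthest from the median of HGF. Both genes were lower in the low spike-in set. With each set centred on its mean, r was 0.58 (permutation p = 0.0192, adjusted p = 0.154), with 0.84 in the 6 dogs of the low set and 0.45 in the 9 of the high set. Centring thus ended the call.

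ERBB2 and FGFR1 had r = 0.74 (permutation p = 0.00153, adjusted p = 0.0288), and rho = 0.48 (p = 0.0754, adjusted p = 0.387). Centred by array set it was 0.83 (adjusted p = 0.0277). The relation rests on the dogs at either end, and without dogs 173175 and 208911 r was 0.42 (permutation p = 0.152). Within the DFI < 100 dogs, which include both, it was 0.88, and within the DFI > 300 dogs 0.33. KIT ran against both genes, with r = -0.67 for FGFR1 and KIT (permutation p = 0.00661, rho = -0.68) and r = -0.65 for ERBB2 and KIT (permutation p = 0.00625, rho = -0.65). The adjusted p of these was 0.0595 each, which missed the threshold. Without dogs 173175 and 208911 they were -0.60 and -0.61, within the low spike-in set -0.78 and -0.71, and within the high set -0.59 and -0.52, so that the sign held in every subset computed.

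**Figure D4:**
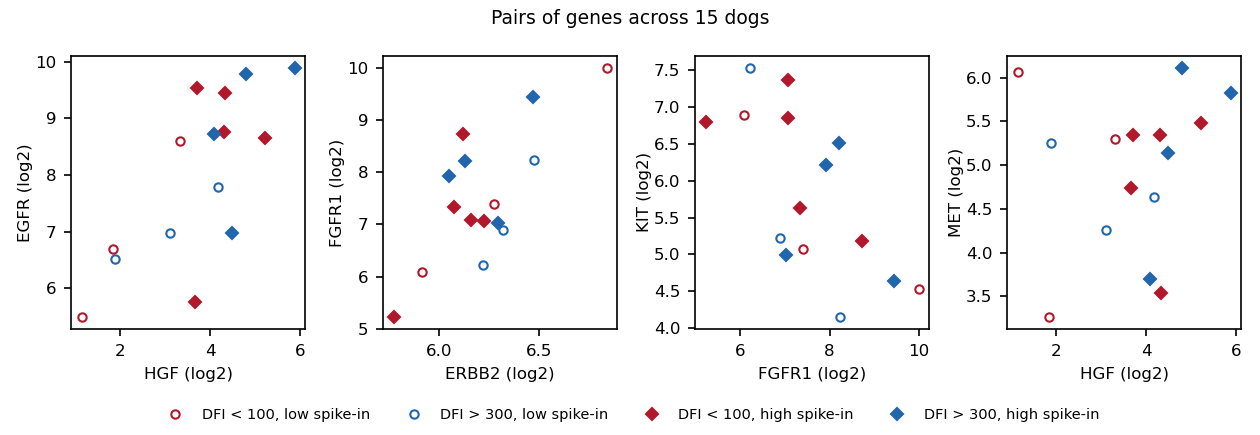
Log2 PLIER signal of HGF and EGFR, ERBB2 and FGFR1, FGFR1 and KIT, and HGF and MET in 15 dogs, the color giving the cohort and the open circles and filled diamonds the arrays of low and high spike-in signal. HGF and EGFR rise together (r = 0.74) with the open circles toward the lower left, ERBB2 and FGFR1 are led by 1 dog at each end, FGFR1 and KIT run opposite (r = -0.67), and HGF and MET show no trend (r = 0.18).

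Among the pairs that did not pass, MET and PDGFRA had r = 0.59 (permutation p = 0.0203, adjusted p = 0.146) and AXL and PDGFRB r = -0.55 (permutation p = 0.0345, adjusted p = 0.207). PDGFRA and PDGFRB, which share ligands, had r = 0.17 (permutation p = 0.527), and EGFR and ERBB2, which form pairs on the cell, r = -0.43 (permutation p = 0.111). KIT and PDGFRA, neighbors in the dog annotation, had r = -0.03 (permutation p = 0.927).

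**Figure D5:**
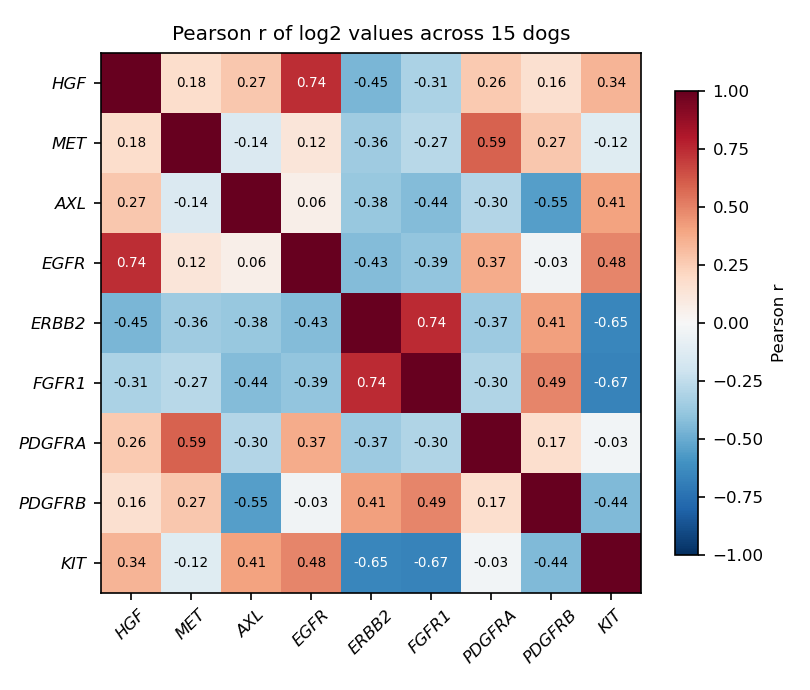
Pearson r of the log2 values of each pair of the 9 genes across the 15 dogs (blue below 0, red above 0), over both array sets. The largest values are those of HGF with EGFR and ERBB2 with FGFR1, both 0.74, and the lowest that of FGFR1 with KIT, at -0.67.

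Markers of other cells were set beside the members they could carry, in 7 pairs. KIT and the mast cell list had r = -0.37 (permutation p = 0.170, adjusted p = 0.407) and rho = -0.53 (p = 0.0429, adjusted p = 0.300). KIT and the marrow and erythroid list had r = -0.33 (permutation p = 0.233). In both lists a single gene, MS4A2 or CD34, was above the reporter level and gave the list value. These r are thus of KIT with a single gene, and cannot show whether KIT followed the cell type. PDGFRB and pericyte and smooth muscle markers had r = 0.36 (permutation p = 0.187), and PDGFRA and the same markers r = 0.54 (permutation p = 0.0363, adjusted p = 0.254), 0.97 in the low spike-in set and 0.26 in the high set. AXL and HGF with macrophage markers had r = -0.04 and 0.25, and FGFR1 with osteoblast markers 0.14, with no p under 0.05. MET, EGFR and ERBB2 could not be set beside epithelial markers, of which 0 of 6 had a mean above the level.

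The named genes whose values ran most like those of a member were searched among the 6448 genes with a mean above the reporter level, over the 15 dogs, as a description. PDGFRA had TRMT5 (r = 0.91), TRIB1 (0.85) and FBN1 (0.83), the fibrillin of elastic microfibrils. EGFR had TUBD1 (0.83), INHBA (0.81), a subunit of activin, and FBLN2 (0.80). In that order their r with EGFR was 0.43, 0.57 and 0.30 in the low spike-in set and 0.88, 0.84 and 0.87 in the high set. KIT had TMEM258 (0.86), STK3 (0.85) and TRMO (0.85), and MET had USP12, NDUFS7 and TANK (0.87 each). FGFR1 had C4H1orf198 (0.82), PLD3 (0.81) and PYGB (0.81), ERBB2 had IRAK1 (0.87), AXL had CIP2A (0.82) and PDGFRB had AGPAT2 (0.78). HGF had SECISBP2L (0.83), whose r was 0.77 in the low spike-in set and 0.51 in the high set. With so many genes searched over 15 dogs high values of r are to be had for any gene. No member was among the 3 genes most like another. HGF, MET, KIT and ERBB2, with means under the reporter level, were not among the genes searched, so they could not have been.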

How the data were processed

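RNA of 15 primary tumors was measured on Affymetrix Canine 2.0 arrays. The deposited values are linear PLIER intensities, which the authors made in Affymetrix Expression Console after choosing RNA of little degradation and removing 1 sample on a pathologist's review. How probes were normalized between arrays beforehand is not stated in what was read here. Of 43035 probesets, 111 Affymetrix and 64 reporter controls stayed out. The remaining 42860 were taken to log2 without an offset, which spreads dim probesets widely. The platform annotation gives 29254 of them 1 symbol, 439 several and 13167 none.

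The 2 cohorts were fitted with lmFit and eBayes of limma 3.58.1 (R 4.3.3). Subtypes and osteoblastic cohorts came from 1 fit over 4 groups of cohort and histology. P-values were adjusted by Benjamini-Hochberg over 42860 probesets. The unpaired 2-tailed test that the methods name was run with 1 pooled variance and is called the methods' t-test. Correlations had 2-sided permutation tests (100000 resamples over 15 dogs). A marker list's level was the mean of its genes above the reporter level. Every member probeset was described. The genes named from a list were taken from those of smallest p in a comparison, up to 4, not all of which are printed, and otherwise named only by their place against the reporter level. The members and lists were chosen with earlier results of these data known, and the split by spike-in signal was found after the data were seen. The fits were tested on simulated data. Dogs are separate animals with 1 array each, and their number limits the precision.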

Additional observations from a re-analysis of the deposited data

Results flagged for a closer look

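In the DFI < 100 cohort ERBB2 had its highest value in dog 173175, at 6.84, with the next of the 8 dogs at 6.27, and the gap took 0.53 of the range of the cohort. This dog also had the highest FGFR1 value. In the DFI > 300 cohort the dimmer probeset of AXL had its lowest value in dog 193231, at 0.69, with the next of the 7 dogs at 3.06 and a gap of 0.70 of the range. The same value stood apart among the 6 osteoblastic DFI > 300 tumors, and it lies far under the reporter level. Each was marked because 1 dog was far from the rest of its group. The 2 marks of AXL are 1 value in nested groups. Chance marks about 1 in 20 groups, and 52 were examined.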

How the results depend on the processing

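No member passed an adjusted p of 0.05 in any alternative run, and the smallest adjusted p was 0.653, for MET between giant cell and osteoblastic tumors without Greyhounds. The sign of PDGFRB held throughout in all 3 comparisons, and that of MET and FGFR1 between giant cell and osteoblastic tumors. The alternatives were an added 16 before the log, limma with trend and robust settings, quantile normalization, other filters and samples, each dog left out, and, chosen after seeing the data, the spike-in sets.

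Between the cohorts the count of called probesets was 2 without Greyhounds, 2 on the high and 1 on the low spike-in set, in place of 0. Between giant cell and osteoblastic tumors it was 1, and 0 with the added 16, with trend and robust settings, after quantile normalization and above the median level, 11 without Greyhounds, 4 with only the DFI < 100 dogs, 12 and 31 on the high and low sets, and 1 to 12 with a dog left out. Among osteoblastic tumors it was 5 and 1 on the high and low sets and 0 to 1 with a dog left out (1 without dog 184844), in place of 0. The 5 genes with a mean above the reporter level became 0 with the maximum of the reporters and 2 with the mean of all probesets. The 2 pairs of members that passed became 0 by Spearman rho and 1 after centring. With a dog left out the r of HGF and MET lay between -0.038 (without dog 173175) and 0.47 (without dog 153599), and it was -0.22 on the low and 0.49 on the high set. The causes were not tested.

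Signs turned as follows. The cohort difference was 0.16 for MET, 0.0042 for ERBB2, 0.71 for FGFR1 and -0.14 for KIT on the low set, 0.013 for FGFR1 without Greyhounds and -0.070 for AXL as the mean of its probesets. With a dog left out it ranged from -0.32 to 0.13 for MET and -0.49 to 0.11 for EGFR. The subtype difference was -1.44 for HGF, -0.11 for AXL and -0.64 for KIT on the low set, 0.46 for EGFR and -0.20 for PDGFRA on the high set, -0.10 for HGF without Greyhounds and -0.41 for AXL as the mean of its probesets. With a dog left out it ranged from -0.65 to 1.39 for HGF, -0.10 to 0.13 for AXL, -0.93 to 0.70 for EGFR, -0.027 to 0.90 for KIT and -0.12 to 0.46 for PDGFRA. Among osteoblastic tumors it was -0.25 for EGFR and -0.81 for FGFR1 on the high set, 0.039 for ERBB2 on the low set and -0.0047 for FGFR1 with the set as a block. With a dog left out it ranged from -0.17 to 0.77 for EGFR, -0.19 to 0.039 for ERBB2, -0.52 to 0.46 for FGFR1, -0.16 to 0.57 for KIT and -0.65 to 0.0097 for PDGFRA.

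No paired analysis was possible because the numbers name single dogs, and no dog is in both groups. HGF and MET in 15 dogs, ERBB2 in 14 and KIT in 10 were not above the reporter level, where the arrays limit what a difference can show, and 3 giant cell tumors limit the subtype comparison.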
